A study of Mus musculus with 24 samples.

Results

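The 44 genes described here code for factors that transcribe, modify, cut and assemble ribosomal RNA in the nucleolus. They were taken by symbol from a table of read counts for 24421 mouse genes, and all 44 were present and passed the filter on low counts, which left 13761 genes for testing. Their counts ranged from 162 to 20862 reads in a library. The cells were MIN6, a mouse insulinoma line that makes insulin and serves as a model of the pancreatic beta cell. Control cells carried a GFP plasmid and the others a plasmid for an EIF2A-GFP fusion. EIF2A is an initiation factor that can bring initiator tRNA to the ribosome. Each construct was sampled with vehicle (DMSO, called 0 h) and after 1 h or 3 h in 1 µM thapsigargin, an inhibitor of the calcium pump of the endoplasmic reticulum that causes stress in that compartment. The 6 groups, GFP and EIF2A at each of 3 times, held 4 libraries each, 24 in all, made from polyadenylated RNA. The plasmids act in whichever cells took them up, and the endogenous Eif2a gene was present in every group. No vehicle group was sampled at 1 h or 3 h, so thapsigargin and time in culture cannot be told apart. The labels number the replicates but do not say that they came from separate cultures, so the p-values measure the spread between these libraries.

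Ribosome synthesis starts when RNA polymerase I copies the ribosomal DNA into a long precursor, with the help of the upstream binding factor UBTF, the promoter complex SL1 and the linking factor RRN3. Small nucleolar RNAs in box C/D and box H/ACA particles guide methylation and pseudouridine formation on that precursor, while the small subunit processome folds and cuts its first part. The particles then mature separately into 40S and 60S subunits. In secretory cells, stress of the endoplasmic reticulum is known to reduce translation and the making of ribosomes through phosphorylation of eIF2α.

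The libraries held 10.5 to 22.2 M assigned reads. Eif2a, the gene carried by the plasmid, stood at 269, 79, 77.8 and 78.7 CPM (read counts scaled to library size) in GFP replicates 1 to 4 at 0 h and at 80.3, 141, 142 and 134 CPM in EIF2A replicates 1 to 4. Replicate 1 thus ran against its construct labels, at 1 h and 3 h as well, and its libraries also stood apart from replicates 2 to 4 of their group across all genes. Groups were kept as labelled, and counts of calls over the 44 members are given with all libraries and without replicate 1. Summed levels and levels per kilobase use all libraries. So do counts by role, promoter motif, hosted small nucleolar RNA, gene length, antisense overlap and the MYC network. Values of single genes are without replicate 1 only where stated. The stress gene Ddit3 rose by 2.03 ± 0.28 (log2 fold change ± SE) at 3 h in GFP cells (adjusted p = 9.44e-06, edgeR quasi-likelihood test with Benjamini-Hochberg adjustment over all genes tested, used for every adjusted p here). All 9 markers of beta cells were present in every library, from a lowest level of 18.4 CPM for Slc2a2 and 99.8 CPM for Mafa to 10377 CPM for Iapp and 18397 CPM for Ins2. The markers of other cell types did not pass 6.15 CPM except for Ttr, Gcg and the macrophage gene C1qa, whose highest levels were 1561, 921 and 90.8 CPM. Prss1 and Amy2a5, which define acinar cells, were at 0 in all 24 libraries.

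Levels of the 44 genes differed widely before treatment. Compared per kilobase of the principal transcript, Npm1, a nucleolar chaperone, was the most abundant in GFP cells at 0 h, at 267 ± 4.44 CPM per kilobase (SD, n = 4). Nop58 followed at 107 ± 6.46, Ncl at 84.1 ± 1.40, Nop56 at 59.7 ± 2.87 and Polr1c at 53.7 ± 1.27 CPM per kilobase. The ranges of these 5 genes did not overlap. This order rests on the length of 1 transcript per gene, such as 1633 bases for Npm1, 8202 for Ncl and 10012 for Wdr12. In CPM alone Ncl was above Npm1 in GFP cells at 0 h, at 682 to 707 against 428 to 444 CPM. Lower in the order the neighbours were closer than their spread: Fbl at 47.4 ± 3.88 and Nhp2 at 44.8 ± 4.28 CPM per kilobase overlapped, as did Tsr1, Gnl3 and Mybbp1a, whose means lay between 25.5 and 26.2. The lowest levels per kilobase belonged to Polr1b, Utp20, Polr1a and Wdr12, with means of 4.61, 4, 3.94 and 2.51 CPM per kilobase. Among the polymerase I genes, Polr1c, a subunit shared with RNA polymerase III, was the highest per kilobase and Polr1a, the largest subunit, the lowest. After 3 h of thapsigargin Nop58 stood at 203 ± 24.8, Nop56 at 114 ± 10.8 and Taf1d at 99.8 ± 12.4 CPM per kilobase, against 38.2 ± 7.61 for Taf1d at 0 h, and Npm1 at 289 ± 11.5 CPM per kilobase was still the highest.

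The promoter windows of the members were searched for 9 short motifs on both strands. The windows run from 250 bases before to 50 after the start site in RefSeq on GRCm38.p6, and 37 of the 44 genes had one; Rrp12, Gnl3l, Gnl2, Rrs1, Npm1, Fbl and Bop1 had none. The E-box CACGTG, the letters that MYC with MAX and several stress factors are known to bind, was in the windows of 9 of 37 members (24.3%), namely Ltv1, Mybbp1a, Nop2, Pes1, Rrn3, Tsr1, Utp18, Utp20 and Wdr43. It was in 11.6% of the 10446 tested genes with a window and in 7.15% of all 32851 windows. Every CACGTG also holds CANNTG, the wider E-box, which 64.9% of members and 67.8% of tested genes had. The ETS motif CGGAAG was in 54.1% of members and 34.0% of tested genes, its longer form CGGAAGTG in 18.9% and 8.03%, and CACGCG in 37.8% and 20.1%. TGATGNAA, the letters bound by ATF4 with C/EBP partners, was in 2.7% of members (Nop14) and 2.68% of tested genes. TGACGTCA was in 0 of 37 members and in 3.76% of tested genes. The CCAAT-box letters ATTGG were in 40.5% of members and 43.2% of tested genes, and GATTGG in 24.3% and 23.7%. Matches are descriptions of letters only. The 4 stretches below carry CACGTG upstream of the start in Nop2 (+ strand), Utp18 (- strand) and Rrn3 (+ strand, matched in 2 places); capitals mark the motif, and each is written 5′ to 3′ along the gene. They are shown because the motif lies upstream of the start in these genes. In Ltv1, Mybbp1a, Pes1, Tsr1, Utp20 and Wdr43 it lies after the start, and those matches are not printed. With all libraries Nop2 and Utp18 rose at 3 h against 0 h in both constructs, and Rrn3 was not called.
Nop2 chr6:125131783-125131868: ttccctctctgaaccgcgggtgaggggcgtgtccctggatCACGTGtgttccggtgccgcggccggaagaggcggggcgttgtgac
Utp18 chr11:93885767-93885826: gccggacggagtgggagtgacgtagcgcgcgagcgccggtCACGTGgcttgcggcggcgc
Rrn3 chr16:13780449-13780529: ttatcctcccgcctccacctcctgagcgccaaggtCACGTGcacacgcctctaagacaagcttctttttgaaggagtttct
Rrn3 chr16:13780611-13780696: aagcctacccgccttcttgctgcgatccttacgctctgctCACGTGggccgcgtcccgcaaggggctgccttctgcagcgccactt

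Most of the ribosome biogenesis genes were higher after 3 h of thapsigargin. In GFP cells 27 of the 44 rose and 0 fell at 3 h against 0 h, where 18.4% of all genes tested rose and 14.6% fell. The median log2 fold change over the 44 was 0.44, beside -0.002 over all genes tested, and 40 of 44 lay above 0. The values ran from -0.40 ± 0.20 for Nop16 (adjusted p = 0.15) to 1.38 ± 0.25 for Taf1d (adjusted p = 0.000236). In EIF2A cells 29 rose and 0 fell at 3 h, against 19.6% and 16.6% of all genes, with a median of 0.48. The same 27 genes rose in both constructs, and Nolc1 and Wdr12 were called in addition in EIF2A cells. At an unadjusted p under 0.05, the number of members below 0 was 0 in GFP and 3 in EIF2A cells, and DESeq2 called 0 and 2 lower (17.6% and 18.5% of all genes). No share of all genes at an unadjusted p is given here or below, so counts at that threshold only describe the members. In bulk RNA, fewer cells of a type and less RNA per cell cannot be told apart.

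Without replicate 1, 37 members rose and 3 fell in each construct at 3 h. The share of all genes that rose was then 32.2% in GFP and 31.2% in EIF2A cells, and 30.8% and 31.4% fell. The medians moved little, to 0.46 and 0.50 on the log2 scale. All 27 and all 29 members called with every library were among those 37. With the replicate number within each construct as a block, 37 rose and 4 fell in each, beside 33.6% and 33.5% of all genes in GFP cells and 32.9% and 33.3% in EIF2A cells. Taken by replicate number, 37 of 44 members of replicate 1 were higher at 3 h than at 0 h in the libraries labelled GFP and 38 of 44 in those labelled EIF2A, and in replicates 2, 3 and 4 these numbers were 40 of 44 each in GFP and 38 of 44 each in EIF2A cells.

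**Figure D1:**
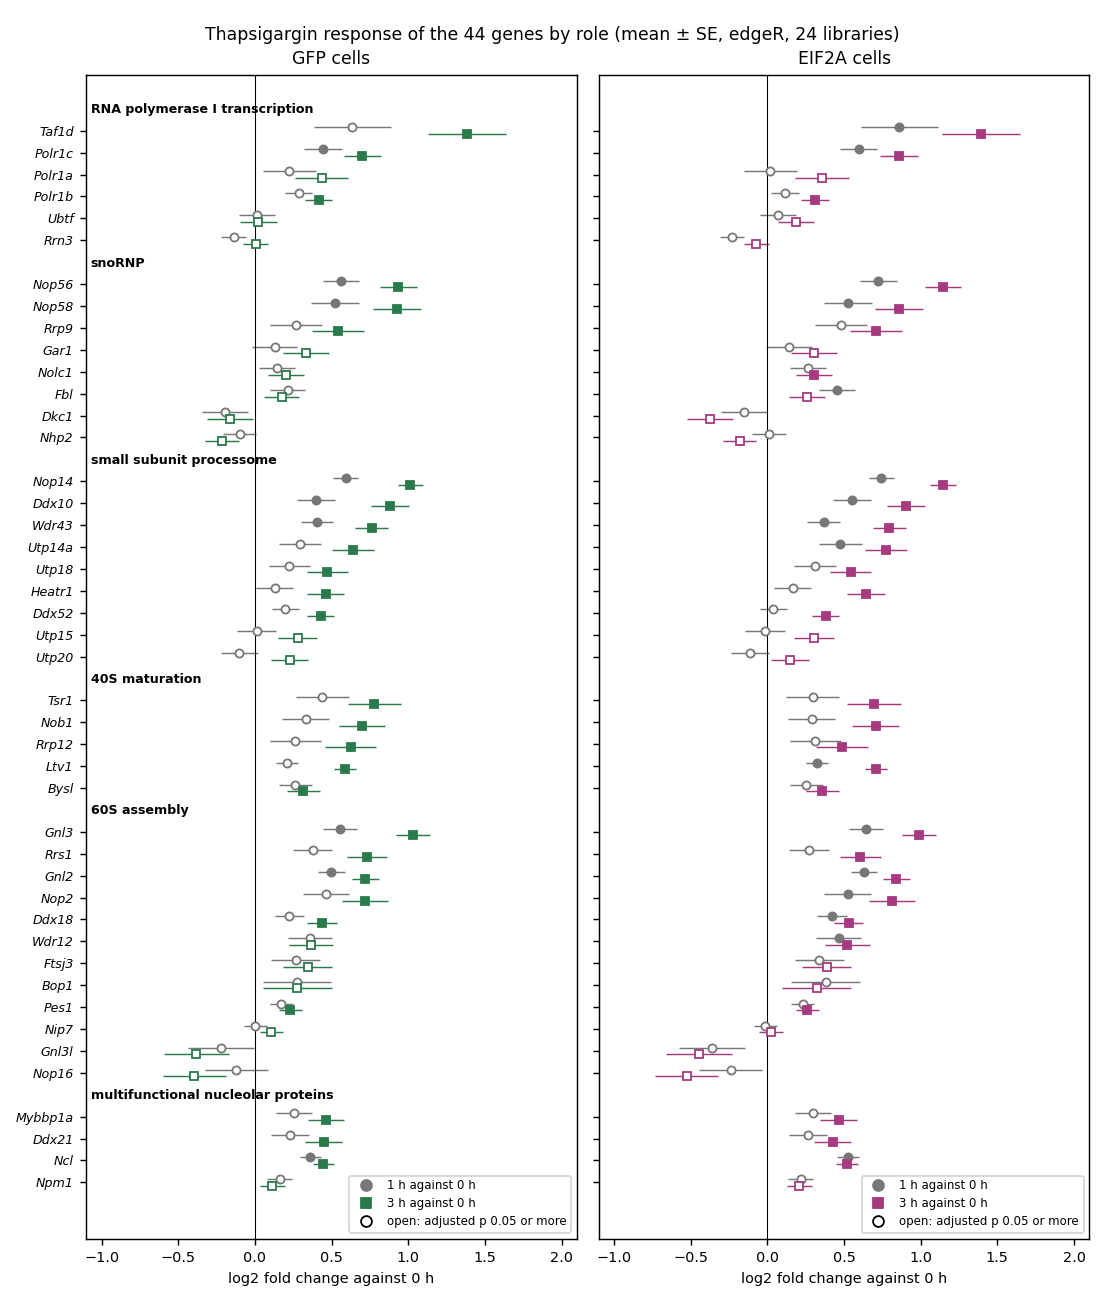
Log2 fold change (± SE) of each of the 44 genes at 1 h (circles) and 3 h (squares) against 0 h in GFP cells (left) and EIF2A cells (right), grouped by role; filled symbols had an adjusted p under 0.05 with all 24 libraries. The 27 filled squares on the left all lie above 0, and 40 of 44 squares lie above 0 there.

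At 1 h the response was partial. In GFP cells 9 members rose and 0 fell, against 5.78% and 2.39% of all genes, and the median log2 fold change was 0.26. These 9 were Ddx10, Gnl2, Gnl3, Ncl, Nop14, Nop56, Nop58, Polr1c and Wdr43. All 9 also rose at 1 h in EIF2A cells, where 16 rose and 0 fell against 6.55% and 3.94% of all genes. The count at 1 h depended on replicate 1: without it 33 rose and 1 fell in GFP cells (21.2% and 18.2% of all genes), and 30 rose and 3 fell in EIF2A cells (20.2% and 21.8%). With the replicate block the counts at 1 h were 33 higher and 3 lower in GFP cells and 30 and 3 in EIF2A cells (22.9% and 21.6% of all genes in GFP, 21.9% and 23.3% in EIF2A cells). With all libraries, leaving out replicate 2 or replicate 3 left 1 call each in GFP cells at 1 h and leaving out replicate 4 left 4; in EIF2A cells the counts were then 3, 5 and 6. Unadjusted p-values under 0.05 numbered 23 above 0 and 0 below 0 in GFP cells at 1 h, and 25 and 1 in EIF2A cells. For these unadjusted counts the share of all genes is not given. DESeq2 called 0 and 1 lower (4.1% and 5.65% of all genes).

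Between 1 h and 3 h few members were called with all libraries, though most had values above 0. These were 39 of 44 in GFP cells (median log2 fold change 0.22) and 36 of 44 in EIF2A cells (median 0.20). Ltv1, Gnl3, Wdr43, Nop56, Nop14 and Ddx10 rose from 1 h to 3 h in GFP cells, 6 of 44 against 5.49% of all genes, and 0 fell against 4.28%. Of these, Ltv1, an export factor of the 40S subunit, had the smallest adjusted p (0.00164), at 0.38 ± 0.07 on the log2 scale. In EIF2A cells Ltv1, Ddx52, Heatr1, Gnl3, Wdr43, Nop56 and Nop14 rose from 1 h to 3 h, 7 of 44 against 8.28%, and 0 fell against 6.62%. At an unadjusted p under 0.05, 18 and 19 members lay above 0 and 0 below, with the share of all genes not given. DESeq2 called 0 lower (6.45% and 8.63% of all genes). Without replicate 1 the counts were 28 higher and 1 lower in GFP cells (21% and 21.3% of all genes) and 25 higher and 3 lower in EIF2A cells (25.5% and 23.6%), and with the block 28 and 2 (25.2% and 24.5%), and 28 and 4 (26.7% and 25.9%). Leaving out replicate 2 or replicate 3 removed all 6 calls in GFP cells.

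Summed over the 44 genes, the level in GFP cells was 3757 ± 130.3 CPM at 0 h, 4514 ± 289.9 at 1 h and 5099 ± 390.2 at 3 h (SD, n = 4). In EIF2A cells the sums were 3783 ± 128 CPM, 4798 ± 257 and 5340 ± 303. No library at 3 h was as low as any library at 0 h of its construct. Their product class moved the other way: the 79 ribosomal protein genes summed to 25390 ± 2920 CPM at 0 h and 19444 ± 2429 CPM at 3 h in GFP cells, and to 34367 ± 5892 and 25964 ± 4107 CPM in EIF2A cells, with groups of 4 that overlapped in EIF2A cells only. Of 78 ribosomal protein genes tested, 0 rose and 35 fell at 3 h in GFP cells (median -0.39, log2), beside 18.4% and 14.6% of all genes. Without replicate 1 the counts were 1 and 70, beside 32.2% and 30.8% of all genes. The small subunit gene Rps26 was at -0.53 ± 0.10 (adjusted p = 0.000444). Beta cell markers, which take up much of these libraries, summed to 81577 to 105584 CPM in GFP cells at 0 h and 43858 to 63701 CPM at 3 h; their part in the result was not tested. When libraries were scaled by their totals alone, the median of all genes at 3 h moved to 0.12 in GFP and 0.15 in EIF2A cells and those of the 44 members to 0.56 and 0.64, with 34 and 36 members called higher and 0 lower. All genes then split into 24.4% higher and 9.77% lower in GFP cells and 27.7% and 9.7% in EIF2A cells.

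**Figure D2:**
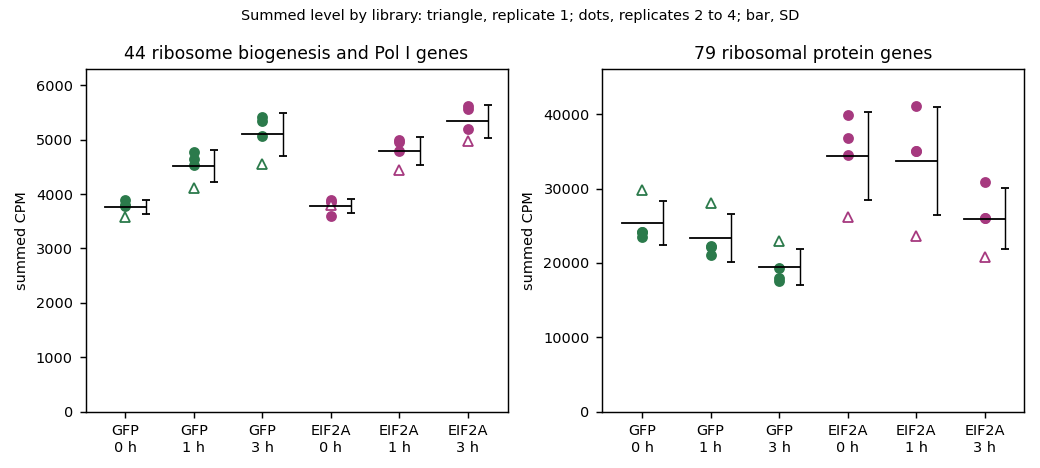
Summed CPM (y axis, from 0) of the 44 ribosome biogenesis and polymerase I genes (left) and of the 79 ribosomal protein genes (right) in each library by group; triangles are replicate 1, dots replicates 2 to 4, lines the mean of 4 and bars the SD. The left panel climbs from means of 3757 to 5099 CPM in GFP cells while the right panel drops from 25390 to 19444 CPM.

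Among the 6 genes of RNA polymerase I transcription, Taf1d, Polr1c and Polr1b rose at 3 h in both constructs. Taf1d (chr9:15306214-15316991, GRCm38, + strand), a subunit of the SL1 promoter complex, stood in GFP replicates 1 to 4 at 56.8, 41.8, 38 and 39 CPM at 0 h, 67.7, 73.6, 67.3 and 64 CPM at 1 h and 118, 128, 118 and 94.3 CPM at 3 h. In EIF2A cells the 4 replicates stood at 46.4, 75.9, 72.2 and 59.4 CPM at 0 h, 58.2, 142, 154 and 107 CPM at 1 h and 97.3, 209.8, 213 and 146 CPM at 3 h. All 3 h libraries lay above all 0 h libraries in both constructs, and replicate 1 was the highest GFP library at 0 h and the lowest EIF2A library at each time. Its fold change at 3 h was 2.61 in GFP cells (log2 1.38 ± 0.25, adjusted p = 0.000236) and 2.62 in EIF2A cells (log2 1.39 ± 0.25, adjusted p = 0.000192). Polr1c rose by 0.70 ± 0.12 and 0.86 ± 0.12 on the log2 scale in the 2 constructs, and Polr1b, the second largest subunit, by 0.42 ± 0.09 and 0.31 ± 0.09. Polr1a was at 0.44 ± 0.17 in GFP cells (adjusted p = 0.0582) and passed the test without replicate 1 (log2 0.46 ± 0.07, adjusted p = 5.4e-06). Ubtf, which binds the ribosomal DNA, was at 0.02 ± 0.12 (adjusted p = 0.911) in GFP cells and 0.19 ± 0.12 (adjusted p = 0.234) in EIF2A cells, where it rose without replicate 1 (log2 0.25 ± 0.05, adjusted p = 0.000177) and with the block.

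Rrn3 (chr16:13780708-13814839, + strand), which couples the polymerase to its promoter and whose promoter holds the E-box in 2 places, had the smallest change of the class at 3 h in GFP cells. Its GFP libraries stood at 95, 104, 101 and 97 CPM at 0 h, 82.9, 95.4, 90 and 91.8 CPM at 1 h and 85, 107, 103 and 103 CPM at 3 h, and the EIF2A libraries at 96.6, 109, 107 and 107 CPM at 0 h, 95, 92.1, 83.8 and 86.8 CPM at 1 h and 98.6, 109, 106 and 86.1 CPM at 3 h. The 0 h and 3 h groups overlapped in both constructs, and replicate 1 was the lowest GFP library at each time. Its log2 fold change at 3 h was 0.01 ± 0.08 in GFP cells (adjusted p = 0.97) and -0.07 ± 0.08 in EIF2A cells (adjusted p = 0.537). It is the only member called at 3 h in neither construct without replicate 1; with the block the same held for Rrn3 and Nip7. At 1 h Rrn3 fell without replicate 1 in EIF2A cells (log2 -0.30 ± 0.07, adjusted p = 0.00158) and with the block in both constructs (adjusted p = 0.0445 and 0.00221 in GFP and EIF2A cells), and it rose from 1 h to 3 h in both constructs without replicate 1 and with the block.

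Among the 8 genes of the small nucleolar ribonucleoproteins, Nop56, Nop58 and Rrp9 rose at 3 h in GFP cells and Nolc1 was called in addition in EIF2A cells. Nop56 (chr2:130274430-130279313, + strand), a scaffold protein of box C/D particles, stood at 115, 117, 105 and 111 CPM at 0 h, 150.2, 175, 175 and 161 CPM at 1 h and 188, 224, 235 and 209.8 CPM at 3 h in GFP replicates 1 to 4. The EIF2A replicates stood at 112, 111, 122 and 101 CPM at 0 h, 145, 199, 206 and 186 CPM at 1 h and 182, 268, 273 and 263 CPM at 3 h. No 3 h library overlapped the 0 h group, and replicate 1 was the lowest at 1 h and 3 h in both constructs. Its fold change at 3 h was 1.91 in GFP (log2 0.94 ± 0.12, adjusted p = 4.08e-06) and 2.21 in EIF2A cells (log2 1.14 ± 0.12, adjusted p = 2.92e-07). Its partner Nop58 rose by 0.92 ± 0.16 (adjusted p = 0.000101) and Rrp9, the specific protein of the U3 particle, by 0.54 ± 0.17 (adjusted p = 0.0162) in GFP cells. Fbl, the methyltransferase of the same box C/D particles, was at 0.17 ± 0.11 (adjusted p = 0.27) in GFP and 0.26 ± 0.12 (adjusted p = 0.089) in EIF2A cells at 3 h, and rose in both without replicate 1 (adjusted p = 0.0384 and 0.00153) and with the block. At 1 h Fbl rose in EIF2A cells with all libraries (log2 0.45 ± 0.12, adjusted p = 0.0147).

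None of the 3 core genes of the box H/ACA particles in the list was called by the main fit, with all libraries and no block. Dkc1, the pseudouridine synthase, was at -0.17 ± 0.15 in GFP cells and -0.37 ± 0.15 in EIF2A cells at 3 h (adjusted p = 0.441 and 0.0567). With RLE, another scaling of the libraries, Dkc1 fell in EIF2A cells at 3 h (log2 -0.40). Gar1 was at 0.33 ± 0.15 in GFP cells (adjusted p = 0.0936) and rose in both constructs without replicate 1 and with the block. Nhp2 (chr11:51619735-51623714, + strand), which binds the guide RNA, stood at 40.3, 47.2, 50.6 and 48.4 CPM at 0 h, 35.7, 42.2, 47.8 and 48.4 CPM at 1 h and 34.9, 39.9, 42.8 and 43.3 CPM at 3 h in the GFP libraries. In the EIF2A libraries it stood at 53, 49.1, 51.5 and 60.1 CPM at 0 h, 47.3, 54.1, 51.2 and 62.8 CPM at 1 h and 47.9, 45.3, 43.7 and 51.6 CPM at 3 h. The groups at 0 h and 3 h overlapped in both constructs, and replicate 1 was the lowest GFP library at each time. Nhp2 was at -0.21 ± 0.11 in GFP cells at 3 h (adjusted p = 0.144) and fell by 0.21 with the block (adjusted p = 0.00124). Dkc1 likewise fell with the block, in both constructs, with log2 values of -0.17 ± 0.06 and -0.35 ± 0.07 (adjusted p = 0.0235 and 2.69e-05). Without replicate 1 Nhp2 fell in GFP cells only and Dkc1 in EIF2A cells only, and with the block Nhp2 fell in both; the differences between the constructs in these responses were not called without the block. The genes of each particle type thus differed among themselves. The box C/D scaffolds Nop56 and Nop58 rose at 3 h with all libraries, without replicate 1 and with the block. Fbl, of the same particles, was not called at 3 h with all libraries. The signs of Dkc1 and Nhp2 at 3 h were negative in both constructs, while Gar1 rose in both without replicate 1 and with the block.

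The small subunit processome had 7 of 9 members called higher at 3 h in each construct, and all 9 had values above 0. Nop14 (chr5:34638536-34660148, - strand), which helps to assemble the 40S precursor, stood at 37.6, 39.3, 38.4 and 38.3 CPM at 0 h, 54.4, 63.5, 57.2 and 56.5 CPM at 1 h and 71.3, 82.8, 79.2 and 76.7 CPM at 3 h in GFP cells. Libraries labelled EIF2A had 39.3, 38.3, 38.1 and 31.2 CPM at 0 h, 54, 63, 64.4 and 64.5 CPM at 1 h and 74.1, 83.9, 84.7 and 82.6 CPM at 3 h. The 3 times did not overlap in either construct. Nop14 rose 1.51-fold at 1 h and 2.02-fold at 3 h in GFP cells (adjusted p = 9.78e-05 and 1.28e-08), and 2.21-fold at 3 h in EIF2A cells (adjusted p = 3.6e-09); its adjusted p at 3 h was the smallest of the 44 in both constructs. The helicase Ddx10 rose by 0.88 ± 0.12 and the scaffold proteins Wdr43, Utp14a, Heatr1 and Utp18 by 0.76, 0.64, 0.46 and 0.47 on the log2 scale in GFP cells. Utp18, whose promoter stretch is printed above, rose with an adjusted p of 0.0087 there and of 0.00301 in EIF2A cells.

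Utp20 (chr10:88746607-88826804, - strand), a large repeat protein of the processome, had the smallest value of the class at 3 h. It stood at 31.5, 37.3, 35.5 and 36.8 CPM at 0 h, 29.1, 37.2, 32.5 and 32.9 CPM at 1 h and 29.7, 47, 42.6 and 45.8 CPM at 3 h in the GFP libraries. In the EIF2A libraries it stood at 31.3, 28.1, 33.1 and 28.3 CPM at 0 h, 32.5, 27.6, 26.7 and 24.7 CPM at 1 h and 35.3, 35.6, 31.6 and 31.2 CPM at 3 h. Replicate 1 was the lowest GFP library at each time, and the GFP groups at 0 h and 3 h overlapped through it alone. Utp20 was at 0.23 ± 0.12 in GFP and 0.15 ± 0.12 in EIF2A cells (adjusted p = 0.166 and 0.386) and rose in GFP cells without replicate 1 (log2 0.30 ± 0.07, adjusted p = 0.00118). Utp15 was at 0.28 ± 0.13 (adjusted p = 0.104) and rose without replicate 1 in both constructs.

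All 5 genes of late 40S maturation rose at 3 h in both constructs, with medians of 0.62 in GFP and 0.70 in EIF2A cells on the log2 scale. Tsr1 (chr11:74898071-74909342, + strand), a GTPase-like factor on the pre-40S particle, stood at 75.7, 95.7, 91.2 and 91.9 CPM at 0 h, 87.2, 136, 133 and 125 CPM at 1 h and 104, 169, 169.8 and 165 CPM at 3 h in GFP cells. EIF2A replicates 1 to 4 had 93.4, 75.9, 71.9 and 65.7 CPM at 0 h, 120.2, 92.4, 86.9 and 77.5 CPM at 1 h and 152, 120.3, 121 and 104 CPM at 3 h. The library of replicate 1 was the lowest at each time among those labelled GFP and the highest at each time among those labelled EIF2A. Tsr1 rose 1.71-fold in GFP (log2 0.78 ± 0.17, adjusted p = 0.00141) and 1.62-fold in EIF2A cells (log2 0.70 ± 0.17, adjusted p = 0.00326). Nob1, the nuclease that trims the end of 18S RNA, rose by 0.70 ± 0.15, Rrp12 by 0.62 ± 0.17 and Ltv1 by 0.59 ± 0.07 in GFP cells. Bysl (chr17:47599331-47611492, - strand) had the smallest rise, with 48.5, 50.4, 51.7 and 53.6 CPM at 0 h, 52.4, 63.1, 62.7 and 67.1 CPM at 1 h and 53.4, 63.3, 65.2 and 72.3 CPM at 3 h in GFP cells. In EIF2A cells Bysl stood at 50.4, 53.7, 52.9 and 55.9 CPM at 0 h, 56.1, 61.6, 65.6 and 70.4 CPM at 1 h and 62.2, 65.2, 61.2 and 84.5 CPM at 3 h. Replicate 1 at 3 h lay just under the highest GFP library at 0 h, and the EIF2A groups did not overlap. Bysl rose by 0.32 ± 0.11 (adjusted p = 0.0264) and 0.36 ± 0.11 (adjusted p = 0.0115).

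Of the 12 genes of 60S assembly, Gnl3, Rrs1, Gnl2, Nop2, Ddx18 and Pes1 rose at 3 h in both constructs. Gnl3 (chr14:31012433-31019152, - strand), which encodes the GTPase nucleostemin, stood at 47.7, 50.9, 50.4 and 50.4 CPM at 0 h, 59.8, 82.1, 80.5 and 70.7 CPM at 1 h and 83.3, 112, 113 and 99.1 CPM at 3 h in GFP cells. Their EIF2A counterparts stood at 50, 45.5, 50 and 39.1 CPM at 0 h, 67.6, 78, 77.7 and 65.6 CPM at 1 h and 92.7, 96.1, 95.2 and 82.6 CPM at 3 h. Both thapsigargin groups lay above the 0 h group in each construct, with replicate 1 lowest in GFP cells throughout. Gnl3 rose 1.47-fold at 1 h and 2.04-fold at 3 h in GFP cells (adjusted p = 0.00301 and 4.33e-07) and 1.99-fold at 3 h in EIF2A cells (adjusted p = 6.48e-07). Its relative Gnl2 rose by 0.72 ± 0.09, Rrs1, which brings 5S RNA to the particle, by 0.73 ± 0.13, and the methyltransferase Nop2, whose E-box stretch is printed above, by 0.72 ± 0.15 on the log2 scale. The 3 proteins of the PeBoW complex did not all pass: Pes1 rose by 0.23 ± 0.07, Wdr12 was at 0.37 ± 0.15 (adjusted p = 0.0589) and Bop1 at 0.28 ± 0.22 (adjusted p = 0.376) in GFP cells, and all 3 rose without replicate 1.

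A pair of 60S genes had negative values. Nop16 (chr13:54584185-54590090, - strand), a factor of early 60S particles, stood at 35.1, 26.7, 29.1 and 27.3 CPM at 0 h, 34, 26.2, 23.6 and 24.8 CPM at 1 h and 26.7, 19.9, 20.9 and 22.3 CPM at 3 h in GFP cells. With the EIF2A plasmid it stood at 25.2, 46, 45.1 and 48.6 CPM at 0 h, 21.4, 37.6, 38.3 and 42.3 CPM at 1 h and 21.8, 31.9, 28.6 and 32 CPM at 3 h. Within each replicate number the 3 h value was below the 0 h value, and replicate 1 was the highest GFP library and the lowest EIF2A library at each time. Nop16 was at -0.40 ± 0.20 in GFP and -0.53 ± 0.20 in EIF2A cells with all libraries (adjusted p = 0.15 and 0.0501), and fell in both without replicate 1 (log2 -0.40 ± 0.07 and -0.59 ± 0.07, adjusted p = 6.22e-05 and 3.44e-07). Gnl3l, a further GTPase of the nucleostemin family, also fell in both without replicate 1 (log2 -0.43 ± 0.08 and -0.51 ± 0.08, adjusted p = 5.85e-05 and 2.1e-05). Its relatives Gnl2 and Gnl3 rose in the same libraries. Nip7 was at 0.11 ± 0.08 and 0.02 ± 0.08 (adjusted p = 0.3 and 0.854), and Ftsj3, a methyltransferase, at 0.34 ± 0.16 (adjusted p = 0.105) in GFP cells. Without replicate 1 Ftsj3 rose in both constructs and Nip7 rose in GFP cells.

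The 4 multifunctional nucleolar proteins rose in part. Mybbp1a (chr11:72441355-72451768, + strand), a regulator of nucleolar transcription, stood at 84.3, 116, 120.1 and 124 CPM at 0 h, 110.3, 137, 138 and 145 CPM at 1 h and 119, 157, 163 and 174 CPM at 3 h in GFP cells. The values with the EIF2A plasmid were 109, 98.8, 103 and 106 CPM at 0 h, 125, 120.3, 129 and 139 CPM at 1 h and 136, 138, 140.4 and 161 CPM at 3 h. Replicate 1 was the lowest GFP library at each time, and its 3 h value was under the highest 0 h value. Mybbp1a rose by 0.47 ± 0.12 (adjusted p = 0.0042) and 0.46 ± 0.12 (adjusted p = 0.00387), and the helicase Ddx21 by 0.45 ± 0.12 and 0.43 ± 0.12. Ncl, the abundant RNA-binding protein nucleolin, rose by 0.36 ± 0.07 at 1 h and 0.45 ± 0.07 at 3 h in GFP cells (adjusted p = 0.00287 and 4.75e-05). Npm1 (chr11:33152287-33163206, - strand) stood at 439, 444, 428 and 433 CPM at 0 h, 482, 491, 491 and 487 CPM at 1 h and 481, 487, 475 and 445 CPM at 3 h in GFP cells. EIF2A cells had 462, 402, 382 and 371 CPM at 0 h, 529, 460.2, 453 and 439 CPM at 1 h and 526, 478, 464 and 401 CPM at 3 h. Every 3 h library of GFP cells was above every 0 h library, though by little, while the EIF2A groups overlapped and replicate 1 was the highest of them. Npm1 was at 0.11 ± 0.08 and 0.21 ± 0.08 (adjusted p = 0.315 and 0.0517) at 3 h. It rose in EIF2A cells at 3 h and in both constructs at 1 h without replicate 1 (adjusted p = 0.00331 at 3 h, and 0.025 and 0.00411 at 1 h in GFP and EIF2A cells), and with the block it rose at both times in both constructs.

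**Figure D3:**
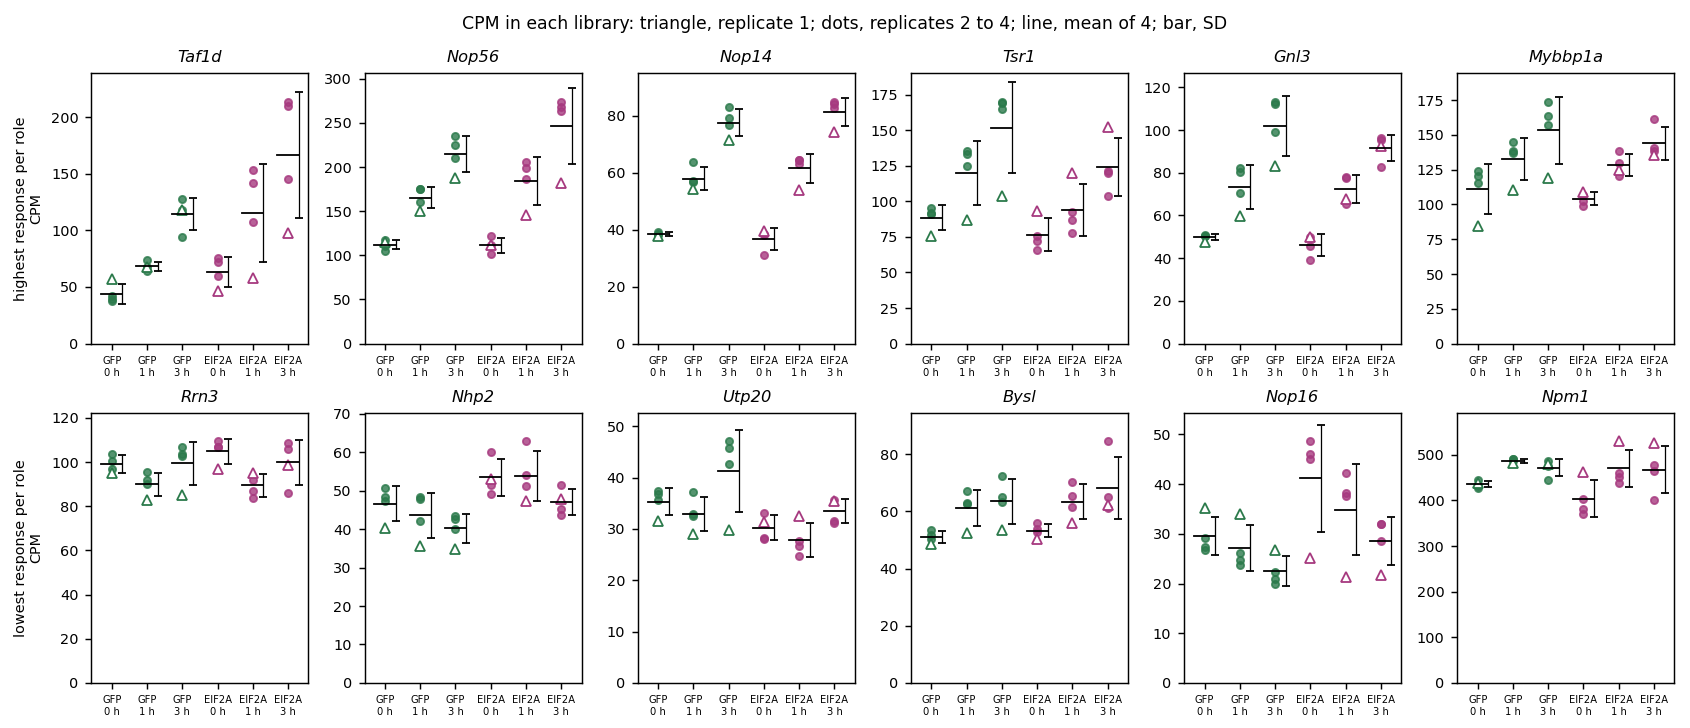
CPM (y axis, from 0) in each of the 24 libraries for the member with the highest (top row) and the lowest (bottom row) log2 fold change at 3 h in GFP cells in each role; triangles are replicate 1, dots replicates 2 to 4, lines the mean of 4 and bars the SD. In the top row the 3 h groups have the highest means of each construct, and for Nop16 the means drop with time in both constructs.

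Some of the members carry genes of small nucleolar RNAs inside their own transcription unit. By the GENCODE M21 annotation, 8 members host 29 small nucleolar RNA genes on their own strand: 8 in Taf1d, 5 in Nop56, 4 in Nop58, 3 each in Wdr43, Gnl3 and Ncl, 2 in Tsr1 and 1 in Dkc1. At 3 h in GFP cells 7 of these 8 rose, with a median of 0.85 on the log2 scale, and 20 of the other 36 rose, with a median of 0.42. The corresponding counts in EIF2A cells were 7 of 8, with a median of 0.83, and 22 of 36, with a median of 0.38. Dkc1 was the exception in both. Of all genes tested, 18.4% rose in GFP and 19.6% in EIF2A cells. These counts use all libraries and are a description, and the difference was not tested. Small nucleolar RNAs are not polyadenylated and were not themselves analysed here. Other genes known mainly as hosts of small nucleolar RNAs moved alike in most cases. Of 10 tested, 7 rose and 2 fell at 3 h in GFP cells (median 0.72), beside 18.4% and 14.6% of all genes. Snhg1 was at 2.12 ± 0.16 (adjusted p = 5.82e-09), Snhg17 at 2.00 ± 0.17 and Snhg5 at 1.44 ± 0.14. Snhg3 was at -0.66 ± 0.14 (adjusted p = 0.00086) and Snhg20 at -0.57 ± 0.10 (adjusted p = 0.000226).

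Most genes of a wider list rose as well. Of 106 further ribosome biogenesis genes, 64 rose and 3 fell at 3 h in GFP cells (median 0.41), beside 18.4% and 14.6% of all genes. In EIF2A cells 65 rose and 4 fell (median 0.41), beside 19.6% and 16.6%. Without replicate 1 these counts were 77 and 8 (32.2% and 30.8% of all genes), and 71 and 9 (31.2% and 31.4%). The list was chosen with earlier results of these data known, so its counts are a description and not independent support. Taf1a, another subunit of SL1, rose by 1.61 ± 0.15 (adjusted p = 5.62e-08), beside 1.38 ± 0.25 for Taf1d. The processome gene Utp3 rose by 0.93 ± 0.07 (adjusted p = 1.05e-08) and Tex10, a 60S maturation factor, by 1.22 ± 0.11 (adjusted p = 7.9e-08). The 3 that fell were Nop10, the small partner of Dkc1 and Nhp2 in box H/ACA particles, at -0.90 ± 0.12 (adjusted p = 4.91e-06), the helicase Ddx54 at -0.42 ± 0.11 (adjusted p = 0.00501) and Polr1d, a subunit shared by polymerases I and III, at -0.40 ± 0.11 (adjusted p = 0.00852). Nop10 stood at 92.6, 91.2, 80.3 and 86.5 CPM in GFP cells at 0 h and 55.2, 44.1, 45.6 and 42.7 CPM at 3 h, with no overlap.

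Of the MYC network, whose members bind the E-box, 2 of 12 genes tested rose and 2 fell at 3 h in GFP cells, 16.7% each way beside 18.4% and 14.6% of all genes. Myc stood at 14.7, 6.68, 6.19 and 6.61 CPM in GFP replicates 1 to 4 at 0 h, 22, 8.40, 9.22 and 8.38 at 1 h and 38.6, 19.6, 20.6 and 18.7 at 3 h. The 4 EIF2A replicates had 7.48, 8.89, 10.2 and 11.5 CPM at 0 h, 8.78, 15.5, 15.5 and 15.3 at 1 h and 18, 30.8, 31.3 and 35.1 at 3 h. Replicate 1 was the highest GFP library and the lowest EIF2A library at each time. Myc rose by 1.51 ± 0.35 on the log2 scale at 3 h in GFP cells (adjusted p = 0.00177) and its antagonist Mxd1 by 0.58 ± 0.10 (adjusted p = 0.000131), while Mxd4 was at -0.77 ± 0.18 (adjusted p = 0.00167) and Mlx at -0.30 ± 0.10 (adjusted p = 0.0229). The members with and without CACGTG in the window were both among those called: 7 of the 24 called members with a window had it. At 1 h Myc was at 0.50 ± 0.34 (adjusted p = 0.48) with all libraries, and without replicate 1 it rose at 1 h by 0.42 ± 0.10 (adjusted p = 0.00191).

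EIF2A against GFP gave no call among the 44 at 0 h, 1 h or 3 h with all libraries and no replicate block, where 0.0218%, 1.02% and 0% of all genes were called. By edgeR, 4 members were higher and 5 lower at 0 h at an unadjusted p under 0.05. At 1 h these were 8 and 4, and at 3 h 4 and 5, with the share of all genes not given. DESeq2 called 0, 9 and 0 members, the 9 against 10.4% of all genes. These groups pool replicate 1 with replicates 2 to 4 although Eif2a ran against its label in replicate 1. Without replicate 1 the libraries labelled EIF2A had 9 members higher and 13 lower at 0 h, 17 and 10 at 1 h, and 10 and 13 at 3 h. The background was then as wide: 31.9% of all genes were higher and 32.9% lower at 0 h, 32.7% and 37.3% at 1 h, and 32.5% and 35.1% at 3 h. The members' shares were 20.5% higher and 29.5% lower at 0 h, 38.6% and 22.7% at 1 h, and 22.7% and 29.5% at 3 h, so that the share of members was above that of all genes only among those higher at 1 h. A further fit used all libraries and the replicate number as a block shared by both constructs. It had 2 members higher and 1 lower at 0 h (5.27% and 4.42% of all genes), 10 and 2 at 1 h (10.3% and 10.7%), and 4 and 0 at 3 h (4% and 3.66%). Nop58 was higher at all 3 times in that fit, and Utp18 was the member lower at 0 h. Same-numbered libraries of different constructs did not deviate together (correlations from -0.663 to -0.159), so that block matched no pairing in the data. The libraries labelled EIF2A in replicates 2 to 4 were also shallower, at 10.5 to 16.6 M reads against 16.7 to 22.2 M, and had 13.3% to 17.9% of reads outside genes against 10.9% to 13%; the part of these in the result was not tested.

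Of the members, 15 were called in the same direction at each time without replicate 1. Counts over several times were not made for all genes, so those in this paragraph are a description only. At each single time 31.9% to 32.7% of all genes were higher and 32.9% to 37.3% lower in that fit. Nob1, Nolc1, Nop16, Nop58 and Taf1d were higher at all 3 times without replicate 1, and Ddx21, Gnl3l, Heatr1, Pes1, Rrs1, Tsr1, Utp15, Utp18, Utp20 and Wdr43 were lower at all 3. Of the 34 members called at 1 or more times, 11 were called at 1 time only and 0 were called in opposite directions, while the values of Ncl, Polr1a and Rrp9 did not have the same sign at all times. Nop16, whose values are given above, was higher by 0.75 ± 0.07 (log2) at 0 h (adjusted p = 1.81e-08), Nolc1, a chaperone of box C/D and H/ACA particles, by 0.37 ± 0.05 (adjusted p = 2.48e-06), Nop58 by 0.55 ± 0.10 (adjusted p = 0.000122) and Taf1d by 0.81 ± 0.15 (adjusted p = 0.000127). Gnl3l had the largest difference downwards. It stood at 105, 131, 129 and 131 CPM in GFP replicates 1 to 4 at 0 h and at 132, 86.1, 85.6 and 80.9 CPM in EIF2A replicates 1 to 4. In replicates 2 to 4 the constructs did not overlap, and in replicate 1 the order was the opposite. Gnl3l was at -0.63 ± 0.08 at 0 h (adjusted p = 1.09e-06), Utp18 at -0.54 ± 0.07 (adjusted p = 3.27e-06), Utp15 at -0.45 ± 0.06 (adjusted p = 5.37e-06) and Heatr1 at -0.38 ± 0.06 (adjusted p = 1.91e-05). With all libraries these values were -0.37 ± 0.21, -0.37 ± 0.13, -0.37 ± 0.13 and -0.28 ± 0.12, with adjusted p from 0.14 to 0.303.

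**Figure D4:**
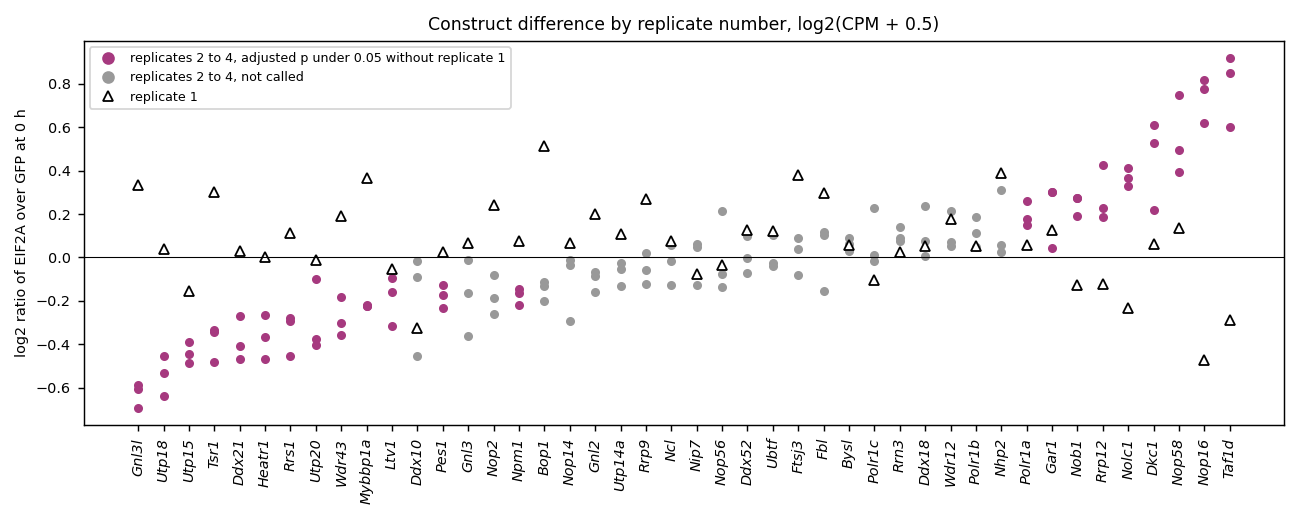
Log2 ratio of EIF2A over GFP in CPM (pseudocount 0.5) at 0 h for each member, libraries taken by replicate number; dots are replicates 2 to 4, coloured where called without replicate 1, and triangles are replicate 1. The dots spread from Gnl3l to Taf1d while the triangle has the opposite sign to the mean of the dots for 25 of 44 members.

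Replicate 1 shared the sign of these differences for some members only. Its ratio of EIF2A over GFP had the sign opposite to the mean of replicates 2 to 4 in 25 of 44 members at 0 h, 23 at 1 h and 26 at 3 h. Among the members called without replicate 1 the numbers were 15 of 22, 16 of 27 and 18 of 23. Such numbers over all genes are not given here. For Tsr1 at 3 h, for example, the libraries labelled GFP gave 104, 169, 169.8 and 165 CPM and those labelled EIF2A 152, 120.3, 121 and 104 CPM, with replicate 1 first in each.

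Whether EIF2A changed the response of these genes to thapsigargin was tested as the difference between the constructs' fold changes. No member was called at 1 h or 3 h, with 0% of all genes called and 0 members at an unadjusted p under 0.05; DESeq2 called 0 as well. The log2 differences at 3 h ran from -0.21 ± 0.21 for Dkc1 to 0.21 ± 0.17 for Nop56. Without replicate 1 the calls were again 0 at both times, against 0.816% of all genes at 1 h and 4.12% at 3 h, and the range at 3 h was -0.31 ± 0.15 for Dkc1 to 0.26 ± 0.09 for Nop56 (adjusted p = 0.305 and 0.129). An unadjusted p under 0.05 was then found for 7 members above 0 and 3 below at 1 h and for 3 and 2 at 3 h. The share of all genes at that threshold is not given, so these counts are a description only. For Taf1d the difference at 3 h was -0.07 ± 0.21 and for Nop14 0.18 ± 0.09. A missed threshold does not show equal responses. With the replicate block added to the fit without replicate 1, 3 members had a higher response in EIF2A cells at 1 h (Fbl, Ncl and Nop56) and 2 a lower one (Gnl3l and Tsr1), against 3.89% and 3.73% of all genes. At 3 h these were Nop56, Polr1c and Ubtf, and Dkc1 and Rrs1, against 5.65% and 8.59%.

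The members' positions and lengths gave little pattern. They lie on 18 chromosomes, with a merged exon length of 1146 to 11955 bases (median 4035). At 3 h in GFP cells 12 of the 22 at or above the median length rose (median log2 0.44) and 15 of the 22 shorter ones (median 0.45). For 18 of 44, exons overlap a gene on the opposite strand, so if the counting ignored strand the reads of both cannot be told apart; Taf1d (with Cep295), Nop56 (with Idh3b), Nop14 (with Gm15522), Tsr1 (with Srr), Gnl3 (with Pbrm1), Bysl (with Ccnd3), Nhp2 (with Rmnd5b) and Mybbp1a (with Spns2) are among them. Of the other 26, 14 rose and 0 fell at 3 h in GFP cells (median 0.42) and 15 rose and 0 fell in EIF2A cells (median 0.38).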

How the data were processed

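The submitters deposited 1 table of raw read counts per gene for the 24 libraries; per the submitters' processing notes, bcl2fastq, STAR and mm10 were used, and per the labels' protocols the libraries came from a stranded mRNA kit. No source used here names the counting tool, the annotation, the strand setting or any version. Reads outside genes (10.7% to 17.9%) and ambiguous reads (0.518% to 0.592%) are listed in the deposited counts as rows that name no gene and were left out of totals and tests.

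Counts were tested in edgeR 4.0.16 (R 4.3.3): TMM scaling, a filter on low counts (minimum count 10, total 15), the robust quasi-likelihood test on 6 group means with 18 residual degrees of freedom, and Benjamini-Hochberg adjustment over 13761 genes. Genes with an adjusted p under 0.05 are said to have risen or fallen, with 4 libraries in each group. CPM values use the same scaling. The tests were checked on counts simulated with no shift of replicate 1, no construct difference and no link between same-numbered libraries. That check does not show how the tests behave with these features. DESeq2 1.42.0, 2 other scalings, no filter, removal of a gene length trend, the replicate block and fits without each replicate and library were alternatives. Fits that combine the omission of replicate 1 with another choice were added after the data were seen.

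Same-numbered libraries of 1 construct deviated together from their group means (r from 0.510 to 0.933 in 24 pairs, median 0.668). For the times and the difference in response, the block was therefore fitted within construct. For EIF2A against GFP the block was instead the replicate number shared by both constructs. Same-numbered libraries of different constructs did not deviate together (r from -0.663 to -0.159 in 36 pairs). The labels do not say what a number shares. Without replicate 1 the r within construct ran from -0.026 to 0.312 (median 0.086), so most of that pairing came from replicate 1. Libraries of 1 group differed more than sampling noise: chi-square per degree of freedom was 1.32 to 20.0 between replicates 2 to 4 and 67.4 to 151 against replicate 1. All counts of members rest on lists chosen with earlier results of these data known. Named by rule were the members with the highest and lowest change at 3 h in GFP cells in each of 6 roles, the 4 smallest adjusted p in each direction between constructs, and up to 3 genes per direction in each wider list. Promoter windows are from RefSeq (GRCm38.p6) and positions from GENCODE M21 (GRCm38).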

Additional observations from a re-analysis of the deposited data

Results flagged for a closer look

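Among the 12 members given library by library, 72 groups of 4 libraries were examined for a library far from the other 3, by Dixon's ratio at its 95% limit, and 6 had one; chance flags about 1 in 20 groups. In 5 of the 6 that library was replicate 1. Nop56 in EIF2A cells at 3 h stood at 182 CPM in replicate 1 against 263 to 273 CPM in the other 3. Nop14 in EIF2A cells stood at 54.0 CPM in replicate 1 at 1 h against 63.0 to 64.5, and at 31.2 CPM in replicate 4 at 0 h against 38.1 to 39.3. Tsr1 in GFP cells at 3 h stood at 104 CPM in replicate 1 against 165 to 169.8. Gnl3 in GFP cells at 0 h stood at 47.7 CPM in replicate 1 against 50.4 to 50.9. Nop16 in EIF2A cells at 0 h stood at 25.2 CPM in replicate 1 against 45.1 to 48.6.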

How the results depend on the processing

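For the times, more members were called higher than lower under every alternative that gave a call, out of 44, and no member called with all libraries was called in the opposite direction. Between constructs there was no call to keep. Without replicate 1 there were 9 higher and 13 lower at 0 h (31.9% and 32.9% of all genes), and 10 and 13 at 3 h (32.5% and 35.1%). With the replicate block these counts were 2 and 1 (5.27% and 4.42%), and 4 and 0 (4% and 3.66%). At 1 h they were 17 and 10 without replicate 1 (32.7% and 37.3%) and 10 and 2 with the block (10.3% and 10.7%). The counts with the block at 0 h and 3 h are too small to read a balance from. With all libraries, leaving out 1 replicate number gave 1 to 34 calls in GFP cells and 3 to 33 in EIF2A cells at 1 h, 19 to 40 and 18 to 40 at 3 h, 0 to 29 and 0 to 28 from 1 h to 3 h, and 0 to 22, 0 to 27 and 0 to 23 between constructs at 0 h, 1 h and 3 h; the highest count was without replicate 1 in each case. Leaving out 1 library gave 5 to 11 and 10 to 19 calls at 1 h, 3 to 11 and 4 to 12 from 1 h to 3 h, and 0 to 7, 0 to 17 and 0 to 11 between constructs. With the replicate block the counts in GFP and EIF2A cells were 36 and 33 at 1 h, 41 at 3 h in both, and 30 and 32 from 1 h to 3 h; between constructs they were 3, 12 and 4 at 0 h, 1 h and 3 h, where same-numbered libraries did not deviate together (r from -0.663 to -0.159). Library totals alone gave 17 and 21 calls from 1 h to 3 h, and DESeq2 gave 9 between constructs at 1 h (10.4% of all genes). Without replicate 1, the difference in response between constructs gave 5 calls at 1 h and 5 at 3 h with the replicate block, and 2 at 3 h with library totals alone. The shares of all genes are not given for the fits without a single library or without replicate 2, 3 or 4. They are also not given for library totals alone in the comparisons just named. Those counts say only how the calls of the members moved. The cause of these moves was not tested. The lowest count of a member in a library was 162 reads.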
